A study of Mus musculus with 22 samples.

Results

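The 74 genes described here, of 11208 in the deposited table (0.66%), had opposite 12 h responses in 2 time courses of starved mouse fibroblasts, one with induced E2F1 and one with serum. They were chosen by their measured values: the mean of log2(value + 1) over the 2 libraries of a group had to differ by at least 1 between 12 h and 0 h in both time courses, with opposite signs. In 25 genes (0.223%) the level was higher at 12 h of E2F1 induction and lower at 12 h of serum. In the other 49 genes (0.437%) it was lower at 12 h of E2F1 induction and higher at 12 h of serum. A further 735 genes (6.56%) passed the same size limit in both time courses with the same sign. Taken singly, 10.7% of all genes were at least 1 log2 unit higher and 5.51% at least 1 lower at 12 h of E2F1 induction, and the shares with serum were 10.3% and 8.98%. Because these 12 h differences chose the genes, they are given as a description and without a test. The tests below use the libraries at 2 and 6 h, and those of the control line after 12 h of doxycycline, none of which entered the rule.

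The cells were NIH/3T3, an established mouse embryonic fibroblast line, with a stably integrated construct that doxycycline switches on. One line carried E2F1 (the E2F1 line, or E2F1 cells) and the other an empty vector (the EV line, or EV cells), and the labels do not say whether either line is a single clone. All cells had been kept for 48 h in medium with 0.25% heat-inactivated fetal bovine serum, and the 0 h groups were collected at that point. The E2F1 line then received 500 ng/ml doxycycline for 2, 6 or 12 h. The EV line received either the same doxycycline or 10% serum for the same times. Each of the 11 groups held 2 libraries of polyadenylated RNA, 22 in all, whose values summed to 34014608 to 46057140 normalized counts. The labels do not say that the 2 libraries came from separate cultures, so the p-values measure only the spread between these libraries, which may be technical.

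E2F1 is a transcription factor that binds the promoters of genes needed for DNA replication and entry into S phase, and in resting cells it is held in check by the retinoblastoma family of pocket proteins. Serum acts further upstream: its growth factors and lipids switch on RAS and ERK signalling and reorganize the actin cytoskeleton, which raises immediate early genes, SRF and actin genes, and matrix and secreted factors before the pocket proteins are released. In this general picture E2F1 stands downstream of the receptor signals that serum brings, and both lead towards the replication genes. Signalling itself was not measured here.

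**Figure D1:**
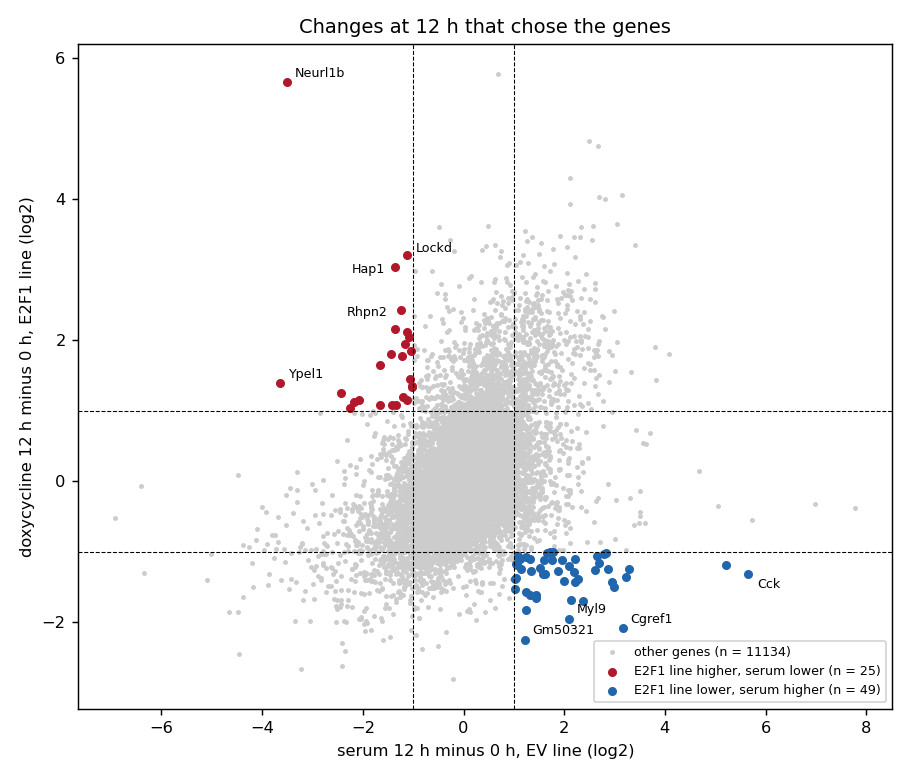
Each point is 1 of 11208 genes, with the mean difference between serum 12 h and 0 h in the EV line on the x axis and between doxycycline 12 h and 0 h in the E2F1 line on the y axis, both in log2 units. Dashed lines mark the limit of 1, and the 25 red and 49 blue genes are those in the upper left and lower right corners. Farthest out were Neurl1b (x -3.5, y 5.66) and Cck (x 5.65, y -1.31).

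The fibroblast identity held: 11 of 12 fibroblast markers were in the table, with a summed level of 704000 to 1300000 normalized counts per group. None of 12 epithelial and none of 8 endothelial markers were in it, and 1 of 10 blood, 1 of 8 adipocyte, 1 of 8 skeletal muscle and 4 of 8 neuronal and glial markers were (Map2, one of the 25, is on the last list). The 1 skeletal muscle marker in the table had its lowest group mean of 1.0 in the EV line at 0 h and its highest of 434 at 2 h of serum, and the 1 blood marker went from 66 to 618, so both were highest with serum, as most of the 49 were. The 1 adipocyte marker was highest in the E2F1 line at 12 h (1350, from 827 at 0 h) and lowest at 6 h of serum (114), as many of the 25 were. Of the 4 neuronal and glial markers, 3 were higher with serum at 6 h and the other, Map2, is among the 25, and their summed level ran from 848 in the E2F1 line at 0 h to 2240 at 6 h of serum. The part of these markers in the results was not tested. In a bulk sample, fewer cells of a type and less RNA per cell cannot be told apart. The median absolute log2 difference between the 2 libraries of a group was 0.103 to 0.16 over all genes and 0.158 to 0.377 over the 74. E2f1 itself (chr2:154559407-154569892, minus strand) read 1703 and 1637 in E2F1 cells at 0 h, 3806 and 3602 at 6 h and 2683 and 2845 at 12 h, against 1426 and 1506 in the EV line at 6 h of doxycycline, a 6 h difference between the lines of 1.34 ± 0.11 (SE, limma, adjusted p = 9.01e-09). With serum E2f1 read 1186 and 956 at 6 h and 4615 and 4247 at 12 h, so at 12 h it was higher with serum than in the induced line. The labels do not say which species' E2F1 the construct holds, so this row may or may not count the construct's RNA.

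The libraries taken after 2 h of doxycycline stood apart. In 7 genes every E2F1-line library at 0, 6 and 12 h was at least 3 log2 units above every EV-line doxycycline library at those times. In 6 of the 7, both EV libraries at 2 h of doxycycline lay above all the other EV doxycycline libraries, by a median fraction of 0.44 of the distance to the E2F1 line. The E2F1-line libraries at 2 h lay below all the other E2F1-line libraries in 5 of the 7, by a median fraction of 0.135. The serum 2 h libraries also lay towards the E2F1 line in these 7 genes, by a median fraction of 0.277, and no value here replaces them. None of the 7 is among the 74 genes, but members of the 74 also moved at 2 h in the EV line. At 0, 2 and 6 h of doxycycline the log2 means there were 7.74, 9.72 and 8.05 for Myl9 and 6.53, 8.43 and 7.02 for Pfkfb3. Atp8b4 went the other way (8.81, 7.45 and 8.63). Such shifts enter the tests that use the 2 h doxycycline libraries, and the members with one were not counted. What set these libraries apart was not tested. The counts at 2 h of serum and from 2 to 6 h in the E2F1 line are also given without the 2 h doxycycline libraries.

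**Figure D2:**
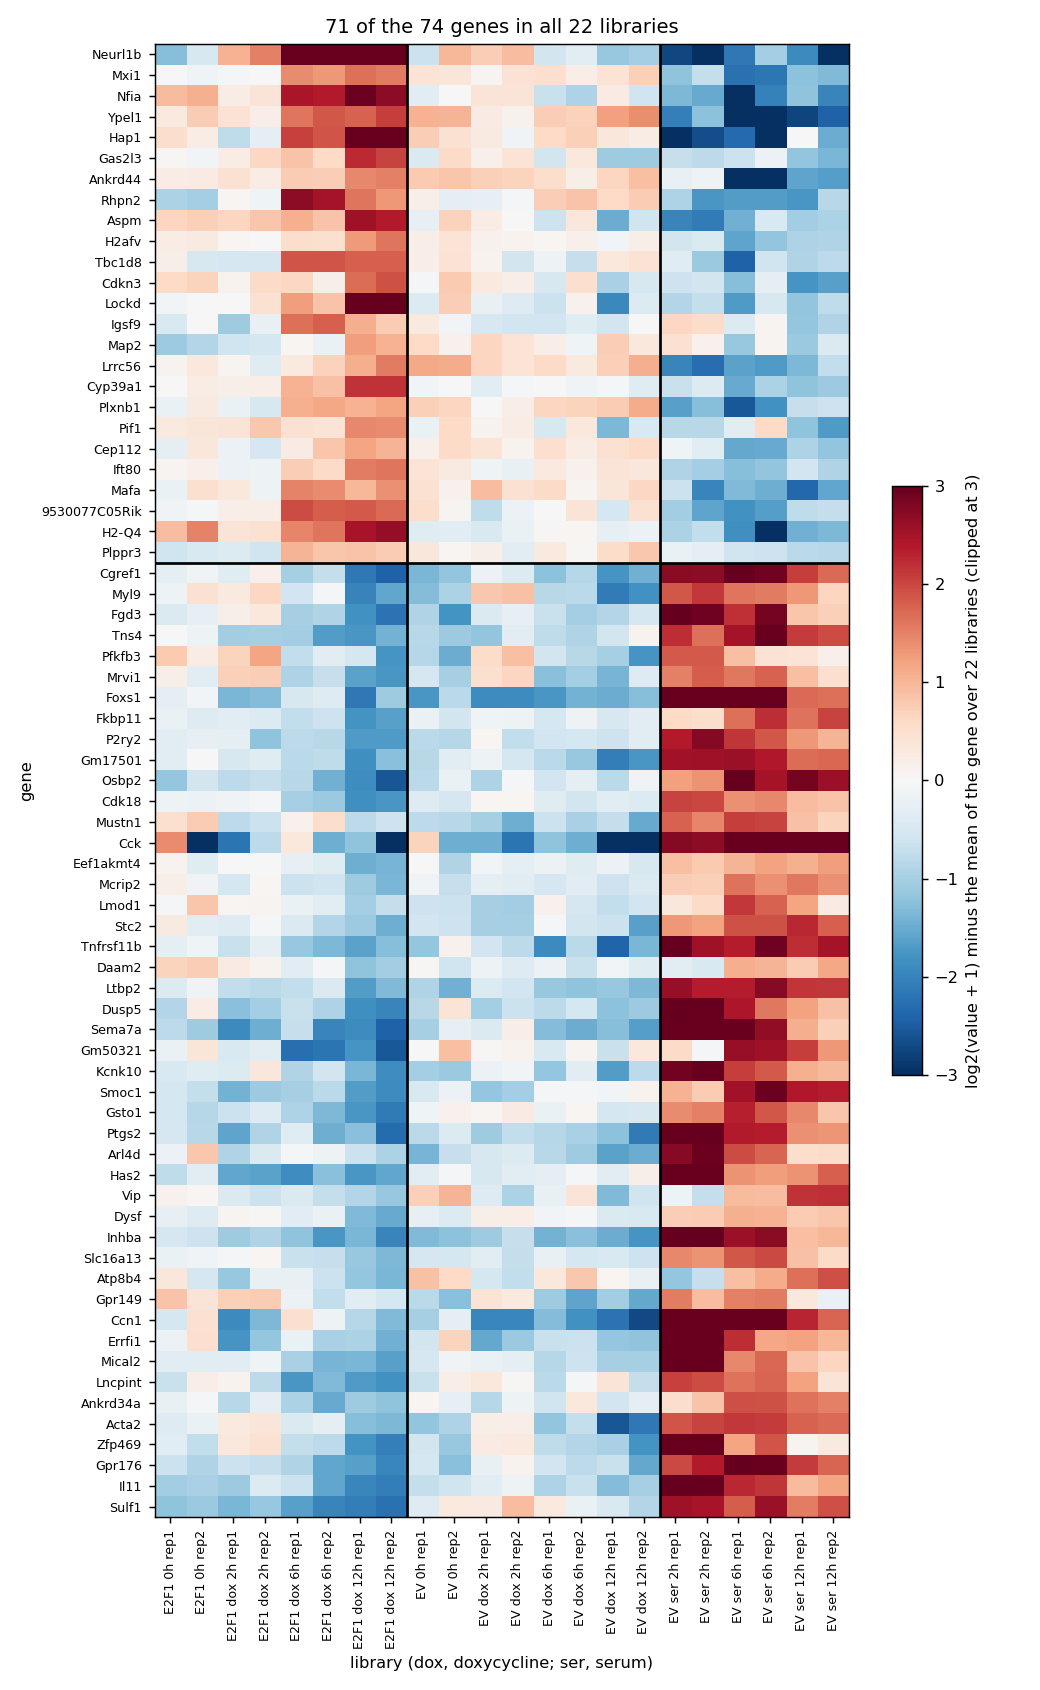
Rows are 71 of the 74 genes, 25 above the horizontal line and 46 below it, and columns are the 22 libraries. The colour is log2(value + 1) minus the gene's mean over the 22 libraries, clipped at 3, and the serum libraries on the right are blue for most of the 25 and red for most of the 49 already at 2 and 6 h.

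The stretches before the RefSeq start of 5 genes of the larger set are shown because they hold letters bound by factors that serum signalling is known to use, and the values of these genes follow below. They come from RefSeq promoter windows (GRCm38.p6), which existed for 20 of the 25 and 36 of the 49 genes, and bases inside same-strand GENCODE exons were left off. Capitals mark a CArG box, the site of SRF, in Dusp5 (chr19:53528895-53529108, plus strand), Myl9 (chr2:156775214-156775419, plus strand) and Gsto1 (chr19:47854723-47854969, plus strand). They mark the AP-1 letters TGANTCA in Il11 (chr7:4778142-4778391, minus strand) and the cyclic AMP response letters TGACGTCA in Arl4d (chr11:101665291-101665540, plus strand). The Il11 stretch lies inside the longer span that GENCODE gives this gene.
Dusp5: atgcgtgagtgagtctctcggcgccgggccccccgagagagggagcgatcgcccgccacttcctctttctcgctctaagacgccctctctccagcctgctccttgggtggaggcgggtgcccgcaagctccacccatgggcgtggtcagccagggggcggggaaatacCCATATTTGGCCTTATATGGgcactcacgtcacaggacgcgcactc
Myl9: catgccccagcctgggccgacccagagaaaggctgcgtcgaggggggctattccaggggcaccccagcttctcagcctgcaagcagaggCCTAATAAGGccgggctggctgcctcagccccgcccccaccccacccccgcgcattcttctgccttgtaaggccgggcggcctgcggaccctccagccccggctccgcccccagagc
Gsto1: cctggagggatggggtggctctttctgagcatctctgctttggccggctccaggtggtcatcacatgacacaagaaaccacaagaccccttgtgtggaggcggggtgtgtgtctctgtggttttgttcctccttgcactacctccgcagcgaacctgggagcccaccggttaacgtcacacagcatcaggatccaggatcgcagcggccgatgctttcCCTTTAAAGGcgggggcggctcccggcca
Il11: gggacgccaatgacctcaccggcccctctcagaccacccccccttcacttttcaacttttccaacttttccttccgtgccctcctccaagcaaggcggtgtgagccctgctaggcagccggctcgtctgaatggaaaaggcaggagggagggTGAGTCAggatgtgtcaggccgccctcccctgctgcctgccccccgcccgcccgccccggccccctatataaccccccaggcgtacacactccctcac
Arl4d: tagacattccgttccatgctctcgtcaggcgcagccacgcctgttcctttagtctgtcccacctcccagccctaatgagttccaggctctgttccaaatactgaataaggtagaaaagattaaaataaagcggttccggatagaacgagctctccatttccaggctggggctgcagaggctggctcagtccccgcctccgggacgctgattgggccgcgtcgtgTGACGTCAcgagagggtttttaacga
In whole windows of 250 bases before to 50 after a start, searched on both strands, a CArG box was found in 3 of 36 windowed genes of the larger set (8.33%), in 0 of 20 of the smaller set and in 1.51% of all 8609 windowed genes. Dusp5 held 2 adjoining ones. AP-1 letters stood in 3 of the 36 (Atp8b4, Cgref1 and Il11; 8.33%) and 0 of the 20, against 5.65% of all. The TGACGTCA letters stood in Arl4d, Daam2 and Errfi1 (8.33%) and 0 of the 20, against 3.81%. An E-box, CACGTG, stood in 11 of the 36 (30.6%) and 1 of the 20 (5.0%), against 12.1%. The FOXO letters GTAAACA were in Mxi1 alone of the 20 (5.0%) and in Cck, Mrvi1 and Osbp2 of the 36 (8.33%), against 2.97%. The E2F letters TTTCCCGC or TTTGGCGC were in 0 of the 20 and 0 of the 36, against 3.79% of all. No one of these letter strings contains another.  A match is a description of these letters in this window and shows neither a bound site nor a cause, and no match says only that these letters are not in the window.

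The 25 genes that were higher with E2F1 and lower with serum included Mxi1, Neurl1b, Ypel1, Nfia, Hap1 and Aspm. At 12 h their median difference from 0 h was 1.45 log2 units in the E2F1 line and -1.34 with serum. All 25 were above the EV line at 12 h of doxycycline, 16 of them by at least 1 (14.7% of all genes), with a median of 1.39. The E2F1-line libraries at 12 h entered the rule, so this too is a description. In the E2F1 line 19 of the 25 had their highest mean at 12 h and 6 at 6 h (9530077C05Rik, Igsf9, Mafa, Plppr3, Rhpn2 and Tbc1d8). With serum the lowest mean after the start came at 2 h in 3 genes, at 6 h in 15 and at 12 h in 7.

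Mxi1 (chr19:53310518-53375810, plus strand) encodes a partner of MAX that competes with MYC and represses its targets. Mxi1 in the E2F1 line read 1463 and 1354 normalized counts at 0 h, 1390 and 1451 at 2 h, 3858 and 3565 at 6 h and 4541 and 4278 at 12 h. In the EV line with doxycycline it read 1943 and 1853 at 0 h, 1538 and 1948 at 2 h, 2062 and 1667 at 6 h and 1917 and 2379 at 12 h. With serum Mxi1 read 628 and 884 at 2 h, 309 and 324 at 6 h and 620 and 576 at 12 h. Every induced library from 6 h on was thus above every control, and every serum library was below every other library. At 6 h Mxi1 was 1.0 ± 0.15 log2 units (SE) higher in E2F1 cells than in EV cells with doxycycline (limma, adjusted p = 1.32e-05). It was -2.55 ± 0.15 in serum against doxycycline in the EV line (limma, adjusted p = 7.74e-11).

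Neurl1b (chr17:26414829-26446349, plus strand), a ubiquitin ligase that acts on Notch ligands, had the largest 12 h difference of the 74 in the E2F1 line, 5.66. It read 10 and 18 in E2F1 cells at 0 h, 54 and 74 at 2 h, 472 and 362 at 6 h and 738 and 720 at 12 h. EV cells read 16 and 52 at 0 h, 43 and 49 at 2 h, 17 and 20 at 6 h and 11 and 12 at 12 h of doxycycline. With serum Neurl1b read 3 and 0 at 2 h, 5 and 12 at 6 h and 6 and 0 at 12 h. It was near the bottom of the scale in every serum library, and its serum fall on the log2(value + 1) scale depends on a few counts. The 6 h difference between the lines was 4.41 ± 0.83 (SE, limma, adjusted p = 0.000165), whereas the 6 h difference between serum and doxycycline did not pass (-1.14 ± 0.83, adjusted p = 0.234).

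Ypel1, a member of a small family of zinc-binding nuclear proteins, had the largest fall with serum of the 25 at 12 h, -3.64. Ypel1 in the E2F1 line read 391 and 540 at 0 h, 434 and 363 at 2 h, 978 and 1159 at 6 h and 1081 and 1352 at 12 h. EV cells read 659 and 651 at 0 h, 377 and 347 at 2 h, 530 and 513 at 6 h and 748 and 841 at 12 h of doxycycline. With serum it read 76 and 135 at 2 h, 20 and 37 at 6 h and 46 and 58 at 12 h. The serum libraries did not overlap with any other, while the E2F1 libraries at 12 h lay above those of the EV line by a smaller margin. Ypel1 was 1.03 ± 0.27 higher in E2F1 cells than in EV cells at 6 h (SE, limma, adjusted p = 0.00286) and -4.21 ± 0.27 in serum against doxycycline (adjusted p = 2.2e-10). Ankrd44 (chr1:54645340-54926387, minus strand), a regulatory subunit of protein phosphatase 6, read 40 and 55 with serum at 6 h against 862 and 679 with doxycycline in the EV line (-4.0 ± 0.15, limma, adjusted p = 9.02e-13). It read 1011 and 995 in E2F1 cells at 6 h, only 0.39 ± 0.15 above the EV line (adjusted p = 0.0296), and this call was lost without either E2F1 6 h library, without EV 6 h replicate 2, with quantile normalization and with equal totals (adjusted p from 0.0587 to 0.302 in these).

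Nfia (chr4:97772734-98118874, plus strand), a nuclear factor I transcription factor, read 279 and 303 in E2F1 cells at 0 h, 798 and 764 at 6 h and 1117 and 932 at 12 h. In the EV line it read 116 and 144 at 0 h and 91 and 76 at 6 h of doxycycline, so the lines already stood apart at rest. With serum Nfia read 12 and 35 at 6 h and 62 and 36 at 12 h. The 6 h differences were 3.22 ± 0.37 between the lines (SE, limma, adjusted p = 6.73e-07) and -1.96 ± 0.37 between serum and doxycycline (adjusted p = 0.00014). Hap1 (chr11:100347327-100356128, minus strand), which binds huntingtin and links cargo to motors, read 72 and 58 in E2F1 cells at 0 h, 209 and 188 at 6 h and 522 and 550 at 12 h, and 9 and 2 with serum at 6 h. Its 12 h differences were 3.03 and -1.35. At 6 h Hap1 was 1.32 ± 0.52 above the EV line (SE, limma, adjusted p = 0.0349), a call that was lost on leaving out any 1 of the 4 libraries (adjusted p from 0.0858 to 0.131).

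**Figure D3:**
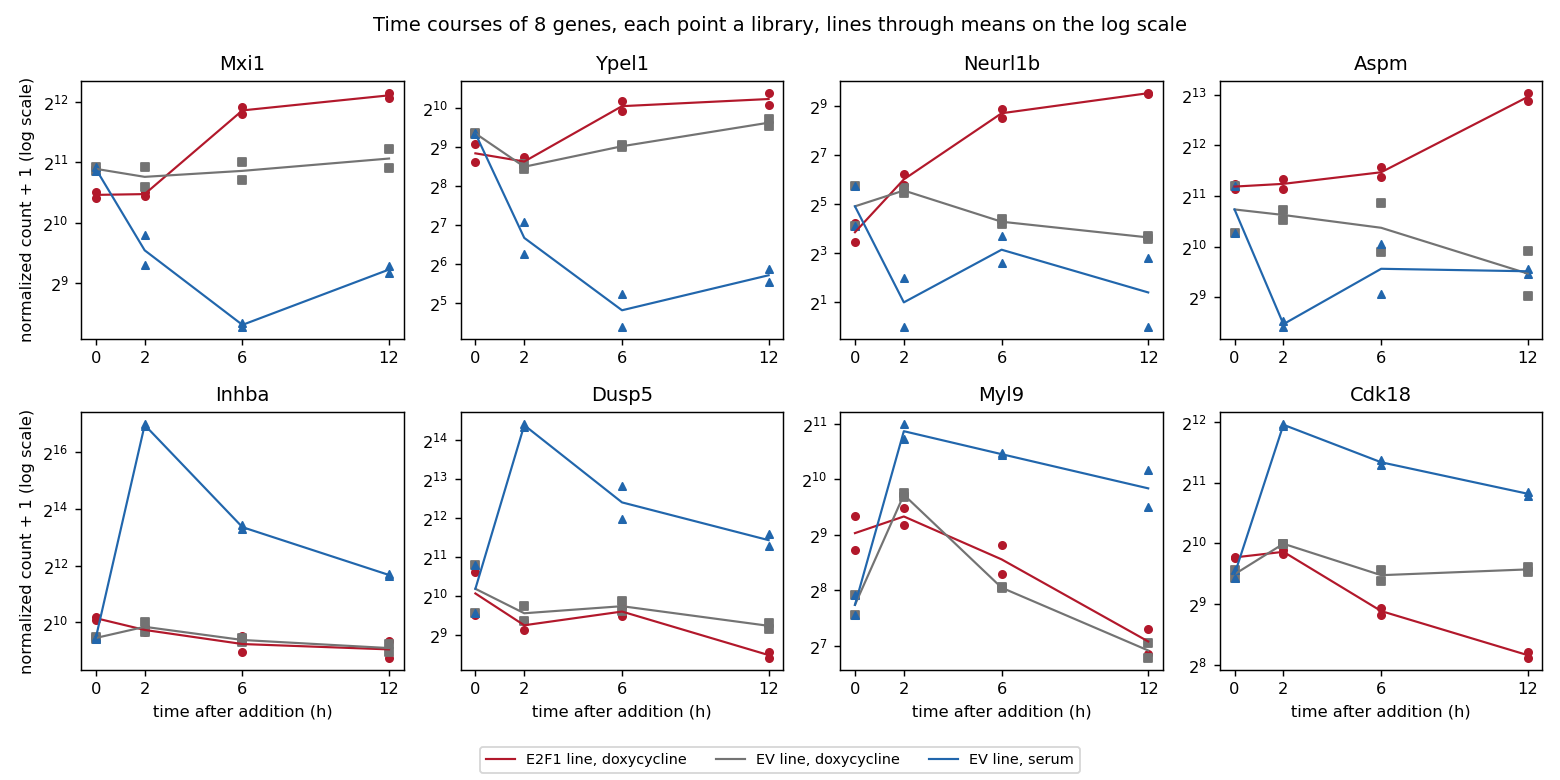
Normalized counts plus 1 (log axis) against hours after addition for 8 genes, with circles for the E2F1 line, squares for the EV line with doxycycline and triangles for the EV line with serum, each point a library and each line the mean on the log scale. In the top row the E2F1 line ends highest and serum lowest or beside the EV line, as for Aspm; in the bottom row serum peaks at 2 h and the doxycycline lines end below it.

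Aspm (chr1:139454772-139494091, plus strand), a spindle pole protein, read 2264 and 2400 in E2F1 cells at 0 h, 3031 and 2655 at 6 h and 8431 and 7524 at 12 h. EV cells read 1232 and 2356 at 0 h, 945 and 1858 at 6 h and 520 and 962 at 12 h of doxycycline, and 537 and 1062 at 6 h and 704 and 757 at 12 h of serum. The 12 h serum libraries thus lay within the range of the EV doxycycline libraries of that time. Replicates of the EV line differed widely, with replicate 1 the lower in each EV group given here. Aspm was 1.1 ± 0.33 above the EV line at 6 h (SE, limma, adjusted p = 0.00807), but not without E2F1 6 h replicate 1 (1.0, adjusted p = 0.0542) or EV 6 h replicate 1 (0.61, adjusted p = 0.168). Gas2l3, which joins actin and microtubules at division, read 3855 and 3362 at 12 h in the E2F1 line against 391 and 388 in the EV line with doxycycline and 361 and 314 with serum. At 6 h Gas2l3 was 0.85 ± 0.27 above the EV line (SE, limma, adjusted p = 0.0109), but not without E2F1 6 h replicate 1 (0.72, adjusted p = 0.0825) or EV 6 h replicate 1 (0.42, adjusted p = 0.229). Cdkn3, a phosphatase that removes the activating phosphate from cyclin-dependent kinases, read 572 and 668 at 12 h in the E2F1 line, 91 and 128 with doxycycline alone and 52 and 57 with serum. At 6 h Cdkn3 passed neither comparison with the EV doxycycline libraries (0.39 ± 0.35, adjusted p = 0.336, and -0.78 ± 0.35, adjusted p = 0.0552, limma). The serum difference of Cdkn3 did pass in limma with a replicate block (-0.78, adjusted p = 0.0284) and with the block within each line (adjusted p = 0.0235). It also passed with equal totals (-0.99, adjusted p = 0.0165). That difference was -1.27 without EV doxycycline 6 h replicate 1 and -1.28 without EV serum 6 h replicate 2. Pif1, a DNA helicase, likewise read 366 and 357 in the E2F1 line at 6 h against 190 and 330 in the EV line and 210 and 406 with serum, with overlap between serum and E2F1, and 723 and 710 at 12 h in the E2F1 line.

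In these 4 genes the EV line with 12 h of doxycycline was itself well below its 0 h level. The differences were -1.27 for Aspm, -1.14 for Gas2l3, and -1.1 for both Cdkn3 and Pif1, against serum differences of -1.22, -1.35, -2.07 and -1.65. Lockd (chr6:134929092-134956798, plus strand), a long noncoding RNA downstream of Cdkn1b, and Neurl1b were the other 2 of the 6 genes among the 25 that were at least 1 lower in EV cells at 12 h of doxycycline, against 1.87% of all genes. Lockd read 159 and 170 in the E2F1 line at 0 h and 1459 and 1586 at 12 h, a difference of 3.2. With 12 h of serum it read 74 and 99, and with 12 h of doxycycline alone 43 and 126.

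Ift80 (chr3:68892499-69004570, minus strand), a subunit of the intraflagellar transport complex, read 2260 and 2373 in E2F1 cells at 0 h, 3552 and 3141 at 6 h and 6168 and 6483 at 12 h, and 874 and 940 with serum at 6 h against 2588 and 2336 with doxycycline. Both 6 h comparisons passed for Ift80, 0.44 ± 0.1 between the lines (SE, limma, adjusted p = 0.00101) and -1.44 ± 0.1 between serum and doxycycline (adjusted p = 7.53e-10). Lrrc56, needed for ciliary dynein, read 34 and 32 with serum at 6 h against 159 and 130 with doxycycline (-2.09 ± 0.29, limma, adjusted p = 4.27e-06), and 130 and 171 in the E2F1 line (0.05 ± 0.29, adjusted p = 0.884). Cep112, a centrosomal protein, showed the same division, with -1.89 ± 0.24 (limma, adjusted p = 1.92e-06) and 0.16 ± 0.24 (adjusted p = 0.577). Neither passed between the lines at 6 h, although Cep112 rose from 2 to 6 h in the E2F1 line (0.88 ± 0.24, limma, adjusted p = 0.00608).

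The remaining genes of the 25 have varied roles. Rhpn2 peaked at 6 h in the E2F1 line with 873 and 774, from 70 and 67 at 0 h, and read 413 and 335 at 12 h. H2afv, a variant histone of the H2A.Z kind, rose from 2649 and 2738 at 0 h to 5516 and 6896 at 12 h in the E2F1 line as chosen, and its 6 h difference between the lines of 0.4 ± 0.12 (SE, limma, adjusted p = 0.0107) was 0.18 with quantile normalization (adjusted p = 0.217). That call was also lost without replicate 1 of either line at 6 h (adjusted p = 0.0605 and 0.0674). Tbc1d8, with a RAB GTPase-activating domain, read 299 and 298 in the E2F1 line at 6 h against 71 and 49 in the EV line (2.32 ± 0.45, limma, adjusted p = 0.000243). Cyp39a1, an oxysterol hydroxylase of bile acid synthesis, read 2490 and 2488 at 12 h in the E2F1 line, 541 and 434 in the EV line with doxycycline and 241 and 261 with serum. Igsf9, an immunoglobulin superfamily adhesion protein, was the exception with serum: it read 226 and 213 at 2 h of serum against 104 and 97 at 2 h of doxycycline (1.12 ± 0.29, limma, adjusted p = 0.00234; against 6 h of doxycycline 1.05, adjusted p = 0.00361) before it fell to 65 and 77 at 12 h. Map2, a neuronal microtubule protein, read 1089 and 944 at 12 h in the E2F1 line but 763 and 576 in the EV line with doxycycline, from unequal 0 h levels of 216 and 250 and of 690 and 503.

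At 6 h, in libraries outside the rule, 19 of the 25 were higher in E2F1 cells than in EV cells with doxycycline (33.0% of all genes were called higher and 60.2% called in either direction), none was lower and 6 did not pass, with a median of 1.02 against 0.01 over all genes. Without E2F1 6 h replicate 1 the count was 12. This comparison includes any difference between the lines at rest, where 19 of the 25 were lower in the E2F1 line, with a median of -0.32. Between serum and doxycycline in the EV line at 6 h, 18 of the 25 were lower (30.0% of all genes), none was higher and 7 did not pass, with a median of -1.48 against 0.04. Aspm and Tbc1d8 are called lower there although their libraries overlapped, and both lost the call when 1 of several libraries was left out. The 2 comparisons share the EV 6 h doxycycline libraries. Both passed in the direction of the rule in 15 genes: 9530077C05Rik, Ankrd44, Aspm, Cyp39a1, H2-Q4, H2afv, Hap1, Ift80, Mafa, Mxi1, Nfia, Plppr3, Rhpn2, Tbc1d8 and Ypel1. Of these, Ankrd44, Aspm, H2afv, Hap1 and Mafa lost the call between the lines when 1 of several libraries was left out. The share of all genes that passed both in these directions was not counted. Set directly against serum at 6 h, 23 of the 25 were higher in the E2F1 line (37.1% of all genes), with a median of 2.2. Map2 (0.46 ± 0.29, limma, adjusted p = 0.175) and Pif1 (0.31 ± 0.34, adjusted p = 0.428) did not pass, and Map2 passed without EV serum 6 h replicate 2 (1.06, adjusted p = 0.00219).

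The 49 genes that were lower with E2F1 and higher with serum included Inhba, Il11, Ptgs2, Ltbp2, Has2, Myl9, Acta2, Dusp5 and Cdk18. At 12 h they stood at a median of -1.27 log2 units in the E2F1 line and 1.77 with serum, both against 0 h. With serum the highest mean after the start came at 2 h in 25 genes, at 6 h in 19 and at 12 h in 5 (Atp8b4, Cck, Eef1akmt4, Stc2 and Vip), so for most of them the 12 h serum level lay on the way down from an earlier peak. In the E2F1 line the lowest mean came at 12 h in 42, at 6 h in 4 and at 2 h in 3.

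Among secreted factors, Inhba (chr13:16011851-16031621, plus strand), the activin A subunit, read 678 and 723 in the EV line at 0 h, 131085 and 123956 at 2 h of serum, 10089 and 10955 at 6 h and 3168 and 3365 at 12 h. E2F1 cells read 1182 and 1093 at 0 h and 655 and 428 at 12 h, beside 606 and 493 in EV cells at 12 h of doxycycline. The groups with doxycycline at 12 h overlapped, so for Inhba the lower 12 h level of the E2F1 line came with a higher start. Ltbp2 (chr12:84783212-84876532, minus strand), a microfibril protein of the latent TGF-beta binding family, read 2358 and 1621 at 0 h and 19294 and 19041 at 12 h of serum. Ltbp2 in the E2F1 line read 3281 and 4074 at 0 h and 1365 and 1758 at 12 h. On a list of 30 genes of TGF-beta, BMP and activin signalling, which holds Inhba and Ltbp2 among others, 19 were higher (35.8% of all genes) and 5 lower (30.0%) with serum than with doxycycline at 6 h, with a median of 1.44 against 0.04 over all genes. Among the other genes of that list Smad7, an inhibitory SMAD, was 3.06 higher with serum at 6 h (limma, adjusted p = 1.25e-12). Between the lines at 6 h, 13 of the 30 were higher (33.0% of all genes) and 7 lower (27.2%) in the E2F1 line, and Inhba (-0.14 ± 0.18, limma, adjusted p = 0.501) passed in neither direction.

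Il11 (chr7:4772373-4782859, minus strand), the interleukin 11 gene whose window holds AP-1 letters, read 306 and 334 at 0 h in the EV line, 12419 and 9751 at 2 h of serum, 2413 and 2216 at 6 h and 980 and 1138 at 12 h. Il11 in the E2F1 line fell from 243 and 256 at 0 h to 129 and 119 at 12 h, which put it at the edge of the rule. Ptgs2, the inducible prostaglandin synthase COX-2, read 4606 and 6123 at 0 h, 275844 and 241108 at 2 h and 21107 and 20245 at 12 h of serum, and 3398 and 1627 at 12 h in the E2F1 line. The 2 E2F1-line libraries of Ptgs2 at 12 h differed by more than the gap to the EV line, which read 3455 and 1865. Cck, the cholecystokinin precursor, was near 0 without serum: it read 36 and 0 in the E2F1 line at 0 h and 5 and 0 at 12 h, and was listed at 0 in both EV libraries at 12 h of doxycycline. With serum Cck read 92 and 87 at 2 h, 499 and 430 at 6 h and 744 and 369 at 12 h. The fall of Cck in the E2F1 line thus rests on 1 library at 0 h. Vip, the vasoactive intestinal peptide precursor, read 3484 and 3543 at 12 h of serum from 1260 and 1568 at 0 h, after 689 and 473 at 2 h. Stc2, a secreted glycoprotein, read 739 and 535 at 12 h of serum from 103 and 100.

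A list of 53 matrix and matrix protease genes holds none of the 74. Has2 (chr15:56665627-56694539, minus strand), which makes hyaluronan, read 1546 and 1899 in the EV line at 0 h, 19613 and 18562 at 2 h of serum, 4952 and 4665 at 6 h and 4951 and 6706 at 12 h. With doxycycline Has2 read 1389 and 1574 at 2 h, 1585 and 1884 at 6 h and 1571 and 2181 at 12 h in the EV line. E2F1 cells read 1153 and 1553 at 0 h, 661 and 635 at 2 h, 535 and 810 at 6 h and 576 and 664 at 12 h. Here the E2F1 line was below the EV line at every time after doxycycline, without overlap, and the 6 h difference was -1.39 ± 0.19 (SE, limma, adjusted p = 6.79e-06). The exons of Has2 overlap those of Has2os on the other strand, and whether the counting used strand is not given in the sources used here. Sulf1, a heparan sulfate sulfatase, read 37 and 29 at 6 h in the E2F1 line, 145 and 103 in the EV line and 418 and 714 with serum (-1.87 ± 0.32 between the lines, limma, adjusted p = 7.07e-05). It was also lower in the E2F1 line at rest, with 50 and 54 against 90 and 144. Smoc1, a matricellular calcium-binding protein, read 476 and 546 at 6 h in the E2F1 line, 936 and 917 in the EV line and 5498 and 7336 with serum.

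Myl9 (chr2:156775420-156781658, plus strand), a regulatory myosin light chain with a CArG box upstream, read 423 and 646 in E2F1 cells at 0 h, 578 and 717 at 2 h, 314 and 451 at 6 h and 115 and 157 at 12 h. Myl9 in the EV line read 188 and 241 at 0 h, 825 and 864 at 2 h, 262 and 266 at 6 h and 109 and 132 at 12 h of doxycycline. With serum it read 1706 and 2048 at 2 h, 1415 and 1391 at 6 h and 1153 and 726 at 12 h. The E2F1 and EV libraries at 12 h of doxycycline were close to each other, and serum was above both at each time. Serum exceeded doxycycline by 2.41 ± 0.24 at 6 h (SE, limma, adjusted p = 7.26e-08), while the line difference of 0.51 ± 0.24 did not pass (adjusted p = 0.0734), although it did without E2F1 6 h replicate 1 (0.77, adjusted p = 0.0309).

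Acta2 (chr19:34241090-34255590, minus strand), smooth muscle actin, read 11752 and 13298 in the E2F1 line at 0 h and 6264 and 6026 at 12 h. EV cells read 6729 and 8028 at 0 h, 17249 and 17556 at 2 h, 6702 and 9315 at 6 h and 2592 and 3433 at 12 h of doxycycline, and 51992 and 49641 at 12 h of serum. Of the 74, limma called Acta2 alone between 6 and 12 h of doxycycline in the EV line (-1.41 ± 0.14, SE, adjusted p = 5.48e-05), and with only the groups compared it called none of the 49. At 6 h it was higher in E2F1 cells than in EV cells, by 0.59 ± 0.14 (adjusted p = 0.00108). Acta2 is close in sequence to other actin genes, and its count is uncertain to that degree. Lmod1, a leiomodin that nucleates actin filaments, was 2.13 ± 0.32 higher with serum than with doxycycline at 6 h (limma, adjusted p = 1.21e-05) and did not differ past the threshold between the lines (-0.07 ± 0.32, adjusted p = 0.861). On a list of 28 SRF and actin genes that holds these 3, 26 were higher (35.8% of all genes) and 1 lower (30.0%) with serum at 6 h (median 1.52), and 12 were higher (33.0%) and 5 lower (27.2%) in E2F1 cells than in EV cells (median 0.19). Mical2, an enzyme that oxidizes actin, read 3268 and 3217 in the E2F1 line at 0 h and 1569 and 1314 at 12 h, against 2049 and 2041 in the EV line at 12 h of doxycycline and 7399 and 6338 with serum.

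Dusp5 (chr19:53529109-53542431, plus strand), a nuclear ERK phosphatase with adjoining CArG boxes upstream, read 755 and 1777 in the EV line at 0 h, 20642 and 21631 at 2 h of serum, 7238 and 3985 at 6 h and 3068 and 2459 at 12 h. Dusp5 in the E2F1 line read 726 and 1565 at 0 h, 843 and 709 at 6 h and 376 and 338 at 12 h. In the EV line with doxycycline it read 780 and 927 at 6 h and 572 and 629 at 12 h. In both lines the 0 h libraries lay far apart, so the 12 h differences of -1.58 and 1.24 rest on a wide start. Errfi1, an inhibitor of the EGF receptor, had the same wide 0 h spread, with 1616 and 3737 in the EV line and 2097 and 3339 in the E2F1 line, and read 23720 and 25693 at 2 h of serum. Arl4d, whose window holds TGACGTCA, read 242 and 477 in the E2F1 line at 0 h and 174 and 141 at 12 h. Its difference of -1.11 there also rests on a wide start. In the EV line Arl4d read 102 and 168 at 0 h, 1806 and 2111 at 2 h of serum and 395 and 397 at 12 h of serum. On a list of 32 immediate early and ERK feedback genes that holds Dusp5, 16 were higher (35.8% of all genes) and 7 lower (30.0%) with serum at 6 h (median 0.67), and 14 were higher (33.0%) and 5 lower (27.2%) in E2F1 cells than in EV cells (median 0.43). Ccn1 (chr3:145646976-145649981, minus strand), a matricellular protein and target of YAP, read 98252 and 106368 at 2 h and 32644 and 22677 at 12 h of serum, from 3366 and 5576 at 0 h. At 6 h Ccn1 read 9357 and 6024 in E2F1 cells and 2725 and 1916 in EV cells, a difference of 1.72 ± 0.32 (SE, limma, adjusted p = 0.000143). At rest Ccn1 was 0.61 higher in E2F1 cells. Ccn1 lies beside Gm17501 (chr3:145650312-145677580, plus strand), also among the 49, which read 1479 and 1508 at 2 h and 822 and 852 at 12 h of serum.

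Cdk18 (chr1:132112237-132139684, minus strand), a PCTAIRE-family kinase, read 880 and 864 in E2F1 cells at 0 h, 912 and 948 at 2 h, 491 and 453 at 6 h and 275 and 294 at 12 h. Cdk18 in the EV line read 754 and 686 at 0 h, 1020 and 1020 at 2 h, 759 and 667 at 6 h and 779 and 742 at 12 h of doxycycline, and 4022 and 3941 at 2 h, 2523 and 2663 at 6 h and 1854 and 1762 at 12 h of serum. Its libraries at 6 and 12 h did not overlap between any of the 3 treatments. At 6 h Cdk18 was -0.59 ± 0.09 in the E2F1 line against the EV line (SE, limma, adjusted p = 3.14e-05) and 1.86 ± 0.09 in serum against doxycycline (adjusted p = 1.78e-11). Gm50321 (chr19:9828899-9836897, minus strand) had the largest E2F1 fall of the 49, -2.25, with 71 and 104 at 0 h, 16 and 17 at 6 h and 23 and 13 at 12 h, against 59 and 86 at 6 h of doxycycline in the EV line (-2.05 ± 0.41, limma, adjusted p = 0.000328). With serum Gm50321 read 504 and 480 at 6 h. Gsto1, a glutathione transferase whose window holds a CArG box, read 4418 and 3268 at 6 h in the E2F1 line, 7304 and 8731 in the EV line and 42133 and 30490 with serum (-1.07 ± 0.2 between the lines, limma, adjusted p = 0.000127). Gsto1 was also lower in the E2F1 line at rest, by -0.68, and its change from 0 to 6 h there was -0.45. Lncpint, a long noncoding RNA, read 23 and 31 at 6 h in the E2F1 line, 45 and 78 in the EV line and 247 and 271 with serum, and its difference between the lines (-1.12 ± 0.45, limma, adjusted p = 0.0389) did not pass with only the groups compared (adjusted p = 0.067), or without E2F1 6 h replicate 1 (0.185), E2F1 6 h replicate 2 (0.0537) or EV 6 h replicate 2 (0.27).

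The next members did not pass between the lines at 6 h, apart from Foxs1, which was higher in E2F1 cells, as it was at rest (1.09). Fkbp11 passed as lower with quantile normalization (-0.44, adjusted p = 0.0336) and without EV 6 h replicate 1 (-0.52, adjusted p = 0.0441). Osbp2 passed as lower with equal totals (-0.8, adjusted p = 0.0464), with only the groups compared (-0.73, adjusted p = 0.0434) and without E2F1 6 h replicate 1 (-1.03, adjusted p = 0.0437), and Tns4 with quantile normalization (-1.47, adjusted p = 0.00901). Against 0 h, the E2F1-line mean at 6 h already stood at -1.28 for Tns4 and -1.04 for Pfkfb3. Cgref1, a secreted EF-hand protein, read 385 and 432 at 0 h and 105 and 87 at 12 h in the E2F1 line, and rose from 182 and 205 to 1997 and 1527 at 12 h of serum. At 6 h Cgref1 did not differ past the threshold between the lines (0.18 ± 0.2, limma, adjusted p = 0.439). Fkbp11, a prolyl isomerase of the endoplasmic reticulum, reached 2365 and 3125 at 12 h of serum from 662 and 518, and fell from 669 and 587 to 221 and 245 in the E2F1 line while the EV line stayed at 545 and 604. Pfkfb3, which sets the level of the glycolytic activator fructose 2,6-bisphosphate, read 143 and 60 at 12 h in the E2F1 line and 104 and 60 in the EV line. Foxs1, a forkhead factor, read 2482 and 2725 at 2 h of serum from 31 and 60. P2ry2, a receptor for ATP and UTP, read 29 and 29 at 12 h in the E2F1 line and 62 and 77 in the EV line. Fgd3, an exchange factor for CDC42, read 41 and 31 in the E2F1 line and 80 and 102 in the EV line at 12 h. Tns4, a focal adhesion tensin, read 18 and 23 at 12 h in the E2F1 line, 43 and 68 with doxycycline alone and 274 and 247 with serum. Osbp2, an oxysterol-binding protein, read 79 and 48, 167 and 273, and 2152 and 1718 in the same 3 groups, and Mrvi1, a substrate of cyclic GMP-dependent kinase, read 72 and 66, 84 and 170, and 418 and 309. For P2ry2, Fgd3, Tns4, Osbp2 and Mrvi1 the 2 E2F1-line libraries at 12 h were therefore below both EV libraries, and for Pfkfb3 they were not.

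At 6 h the larger set was one-sided with serum and divided between the lines. Of the 49, 48 were higher with serum than with doxycycline in the EV line (35.8% of all genes), none was lower, and Atp8b4 did not pass (0.45 ± 0.3, limma, adjusted p = 0.187), with a median of 2.77 against 0.04 over all genes. Between the lines, 12 of the 49 were lower in the E2F1 line (27.2% of all genes), 7 were higher (33.0% of all genes) and 30 did not pass, with a median of -0.1 against 0.01. The share called lower was thus near that of all genes, and the share called higher was below that of all genes. Without EV 6 h replicate 2 the count lower was 7. The 7 called higher were Acta2, Arl4d, Ccn1, Foxs1, Gpr149, Ltbp2 and Mustn1, which at 12 h were chosen as falling. Arl4d, Foxs1, Gpr149 and Ltbp2 lost that call when 1 library was left out, and Ltbp2 also with quantile normalization (adjusted p = 0.0667). At rest 34 of the 49 were higher in E2F1 cells than in EV cells, 9 of them by at least 1 (1.61% of all genes), with a median of 0.36, and since both 0 h groups entered the rule this is a description. The 7 genes called higher at 6 h were all higher at rest too. Their resting differences were 0.77 (Acta2), 1.37 (Arl4d), 0.61 (Ccn1), 1.09 (Foxs1), 1.65 (Gpr149), 0.9 (Ltbp2) and 1.43 (Mustn1). The part of these in the 6 h calls was not tested. Both 6 h comparisons passed in the direction of the rule in 11 genes: Ankrd34a, Cdk18, Dysf, Gm50321, Gsto1, Has2, Lncpint, Mical2, Smoc1, Sulf1 and Vip. Of these, Ankrd34a, Dysf, Lncpint, Mical2 and Vip lost the call between the lines when 1 library was left out. At rest the 11 differed between the lines by -1.12 (Sulf1) to 0.28 (Cdk18), with Vip at -0.77. The share of all genes that passed both 6 h comparisons in these directions was not counted. Set directly against serum at 6 h, all 49 were lower in the E2F1 line (33.7% of all genes), with a median of -2.87.

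**Figure D4:**
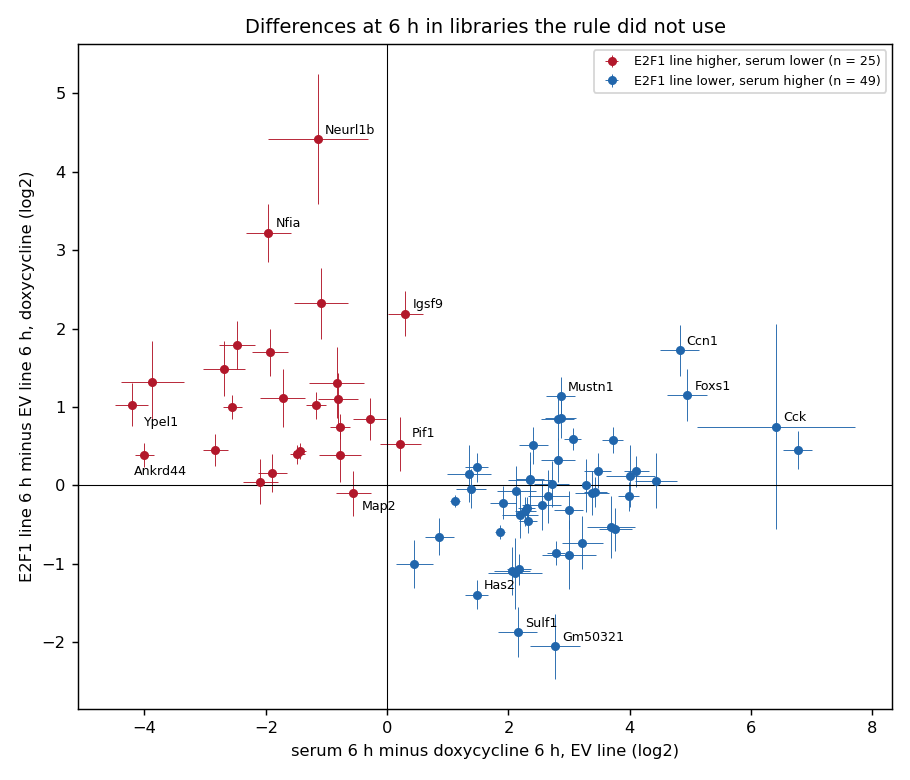
Each point is 1 of the 74 genes at 6 h, with serum minus doxycycline in the EV line on the x axis and E2F1 line minus EV line, both with doxycycline, on the y axis, in log2 units with bars of 1 SE. The red genes lie mostly above 0 on the y axis (median 1.02), while the blue genes lie to the right (median 2.77) and on both sides of 0 on the y axis (median -0.1).

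Timing was read from the 2 h libraries, with the reservation given above. At 2 h of serum against 2 h of doxycycline in the EV line, 45 of the 49 were higher (35.0% of all genes) and 17 of the 25 were lower (32.1%), with Igsf9 higher. Against the EV libraries at 6 h of doxycycline in place of those at 2 h, 44 of the 49 were higher (37.7%) and 18 of the 25 lower (33.0%). Atp8b4 was lower with serum at 2 h in that second comparison (-1.49 ± 0.3, limma, adjusted p = 0.000208). From 2 to 6 h in the E2F1 line, 18 of the 25 rose (27.4% of all genes) and 17 of the 49 fell (20.2%), with 3 of the 49 rising, Ccn1, Foxs1 and Mustn1. Without the 2 h libraries, the 6 h means of the E2F1 line lay above 0 h in 24 of the 25 (median 1.07), by at least 1 in 13 (8.65% of all genes), and below 0 h in 46 of the 49 (median -0.52), by at least 1 in 9 (1.38%). The 0 h libraries of the E2F1 line entered the rule, so these counts are a description and not an independent check. The 2 to 6 h change was greater in E2F1 cells than in EV cells in 14 of the 25 (23.0% of all genes), which were Ankrd44, Cyp39a1, H2afv, Hap1, Ift80, Igsf9, Mafa, Mxi1, Neurl1b, Nfia, Plppr3, Plxnb1, Rhpn2 and Tbc1d8. Without E2F1 2 h replicate 2, or without EV 6 h replicate 2, that count was 8. It was smaller in the E2F1 line in 5 of the 49 (12.7% of all genes) and greater in 5, and the count of 5 smaller was 2 without E2F1 2 h replicate 2 and 3 without E2F1 6 h replicate 2 or EV 2 h replicate 1. Cdk18, Gm50321 and Slc16a13, a monocarboxylate transporter family member, both fell from 2 to 6 h in the E2F1 line and passed this comparison of the lines.

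The EV line with doxycycline for 12 h shows how much of each 12 h difference was also present without E2F1. The EV 0 h group and the E2F1-line groups at 0 and 12 h entered the rule, so the counts that use them are a description. Against the EV line at 0 h, 39 of the 49 were lower, 8 of them by at least 1 (1.87% of all genes) and none higher by at least 1, with a median of -0.33. In 5 of the 49, Acta2, Cck, Ccn1, Tnfrsf11b and Vip, the EV line fell by as much as or more than the E2F1 line. Against the EV line at 12 h of doxycycline, 36 of the 49 were lower in the E2F1 line, 14 of them by at least 1 (8.9% of all genes), and 3 were higher by at least 1. In the 25 the EV line had a median of -0.03 at 12 h. Between 6 and 12 h of doxycycline in the EV line, limma called 0 of the 25 and 1 of the 49 (0.0446% of all genes), Acta2, and without EV 6 h replicate 1 it called 1 and 2.

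**Figure D5:**
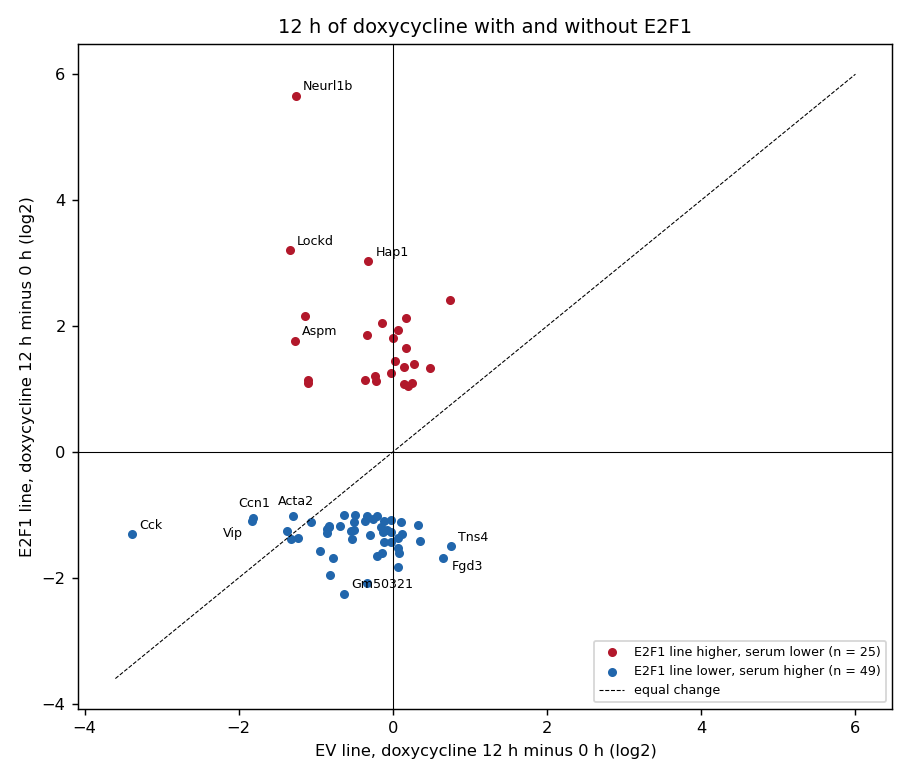
Each point is 1 of the 74 genes, with the change from 0 to 12 h of doxycycline in the EV line on the x axis and in the E2F1 line on the y axis (log2 units), and the dashed line marks equal change. All 25 red genes lie above the line, and of the 49 blue genes 44 lie below it, while Acta2, Cck, Ccn1, Tnfrsf11b and Vip do not. The y axis is a change that chose the genes, so the side of the line is in part set by that choice.

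The genes nearest the limit were Plppr3 (1.34 and -1.02) and H2-Q4 (1.35 and -1.03) inside the smaller set, for the 12 h differences with E2F1 and serum. Just outside it were Pkia (1.16 and -1.0, before rounding short of the limit) and Slc12a5 (0.99 and -1.81). Il11 (-1.0 and 1.72) and Sulf1 (-1.0 and 1.77) lay just inside the larger set, and Mdn1 (-1.01 and 1.0) and Usp36 (-1.02 and 0.99) just outside. H2-Q4 belongs to the MHC class I family, whose members are close in sequence, and its count is uncertain to that degree.

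The replication and mitosis lists held none of the 74, but they do not name every gene of these processes. Aspm and Gas2l3, both of the 25, are on neither. Over all genes 35.8% were higher and 30.0% lower with serum at 6 h, and 33.0% were higher and 27.2% lower between the lines. The list counts that follow stand beside these shares. Of a list of 45 E2F target genes of G1 and S phase, 45 were higher in E2F1 cells than in EV cells at 6 h (median 2.48) and 20 were higher and 4 lower with serum, and none is among the 74. Of 30 G2 and M phase genes, 26 were higher and none lower in the E2F1 line, 0 higher and 4 lower with serum, and none is among the 74. In their 12 h differences with E2F1 and serum, Ccnb2 (1.94 and -0.98) and Cenpa (1.73 and -0.97) fell just short of the limit. Others, such as Cdk1 (2.48 and 1.42), had the same sign in both. Of 17 CDK inhibitors and pocket proteins, which include Cdkn3, 11 were higher and 1 lower in the E2F1 line and 5 higher and 6 lower with serum. Of 19 Notch pathway genes, Neurl1b alone is among the 25, and 4 were higher and 10 lower with serum at 6 h, with 5 higher and 7 lower in the E2F1 line. Of 16 chemokine, cytokine and prostaglandin genes, which include Il11 and Ptgs2, 8 were higher and 3 lower with serum, and 1 was higher and 4 lower in the E2F1 line. Of 28 genes of the ATF4 response, which include Stc2, 15 were higher and 3 lower with serum, and 8 were higher and 3 lower in the E2F1 line. Of 20 YAP and TEAD targets, which include Ccn1, 15 were higher and 1 lower with serum, and 7 were higher and 6 lower in the E2F1 line. Of 32 FOXO and starvation associated genes, 26 were lower and 3 higher with serum, and 19 were lower and 5 higher in the E2F1 line, and none is among the 74.

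Protein-coding genes made up 23 of 24 annotated genes in the smaller set and 45 of 48 in the larger, against 93.7% of all. The median gene length was 32.3 kb in the smaller set, 15.6 kb in the larger and 23.0 kb over all genes. The 25 lay on 12 chromosomes and the 49 on 17. Their median resting levels, 278 and 394 normalized counts in the E2F1 line, were below the 1290 of all genes. Exons overlapped those of another gene in 13 of the 25 and 9 of the 49, nearly always on the other strand, as for Mxi1, Nfia, Ankrd44, Rhpn2, Tbc1d8 and Lockd, and without knowledge of strand in the counting those values are uncertain to that degree.

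The authors' deposited tables of changes against 0 h, whose smallest change was 2.0 log2 units in size, held part of these genes. At 12 h they listed 7 of the 25 as higher and 2 of the 49 as lower in the E2F1 line, among 510 genes listed. With serum at 12 h they listed 6 of the 25 as lower and 22 of the 49 as higher, among 726 genes listed. At 6 h of serum 9 and 37 were listed in the same directions in the authors' deposited tables, among 795 genes listed. The 0 and 12 h libraries behind these lists also chose the 74, so the counts are a description. None of the 74 was in the authors' deposited tables for the EV line with doxycycline. Those held only 37 genes at 2 h, 2 at 6 h and 4 at 12 h, so an absence there says little.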

How the data were processed

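RNA-seq libraries of NIH/3T3 lines were analysed from the table of normalized counts that the authors deposited, whole numbers treated as a score because they are rounded and their scaling method is not given in the sources used here. Per the submitters' processing notes, FastQC, Trimmomatic, HISAT2, featureCounts and DESeq2 were used with the mm10 build; annotation release and strand use are not given in the sources used here. The table holds 11208 genes, and its lowest gene mean is 99.6, so genes of low level are not analysed here. The log2 fold changes and adjusted p-values in the authors' deposited tables were used only to count which genes are listed.

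Values were taken as log2(value + 1), a scale that understates the change of low genes. One limma model (3.58.1, R 4.3.3) with a mean per group over 22 libraries (11 residual degrees of freedom) was fitted to all genes, with Benjamini-Hochberg adjustment over 11208 genes and a threshold of 0.05, and the code was tested on simulated data. The text prints differences with their SE. The 74 genes, the gene lists and the comparisons were chosen with earlier results of these data known. Named genes were the 12 per direction with the largest smaller 12 h change and a mean of at least 100 in the highest of the 4 groups of the rule, members on a list, the 2 nearest genes inside and outside the limit in each direction, members that missed the direct 6 h test, and E2f1. Further members are named with values seen. Some members and list genes are counted but their own results are not reported here. Positions are from GENCODE M21 (mm10), which matched 10977 of 11208 gene identifiers, not those of Ypel1 and Zfp469. Alternatives were a pseudocount of 8, quantile normalization, equal totals, a mean of at least 500, only the groups compared, a replicate block, each library left out and, added after seeing the data, serum 2 h against EV doxycycline 6 h. Replicate numbers were not taken to pair the libraries, since same-numbered libraries did not deviate together in every pair of groups. Python 3.11.15, pandas 2.3.3, numpy 2.4.6 and matplotlib 3.10.9 were used.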

Additional observations from a re-analysis of the deposited data

Results flagged for a closer look

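The change from 2 to 6 h of doxycycline differed between the lines, by limma's test of that difference, in 14 of the 25 genes with the E2F1 line above the EV line (23.0% of all genes). In the 49 it differed in 5 with the E2F1 line below (12.7% of all genes), a share near that of all genes, and in 5 with it above. Mxi1 had a difference of 1.29 (adjusted p = 0.000105, limma) and Nfia one of 3.3 (adjusted p = 8.49e-05). At 2 h Nfia read 170 and 190 in the E2F1 line, below its 279 and 303 at 0 h. In the EV line it read 189 and 191 at 2 h, above the 116 and 144 at 0 h and the 91 and 76 at 6 h. Part of the 3.3 therefore lies in the 2 h libraries. Among the 49, Cdk18 had -0.46 (adjusted p = 0.0121) and Gm50321 -1.58 (adjusted p = 0.0408). Both counts rest on the 2 h libraries that stood apart.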

How the results depend on the processing

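No value named here changed direction while called. Members numbered 23, 19 and 33 among those higher with E2F1, and 43, 49 and 50 among those lower, with a pseudocount of 8, quantile normalization and equal totals, and 8 of the 25 and 19 of the 49 met the rule under every alternative except the mean filter. Of the genes that introduce the 2 sets, Mxi1, Neurl1b, Ypel1, Ltbp2, Myl9 and Cdk18 were among these. Nfia, Hap1, Aspm, Inhba, Il11, Ptgs2, Has2, Acta2 and Dusp5 were not. A mean of at least 500 tests fewer genes: it left 11 and 29 members, with 9 and 7 called between the lines at 6 h, 9 and 29 between serum and doxycycline at 6 h, 10 and 29 between E2F1 and serum, 8 and 27 at 2 h of serum, 8 of the smaller set from 2 to 6 h, and 7 and 3 for the difference of that change. That last count in the larger set was 8 with quantile normalization and 8 with equal totals. Leaving out 1 library gave 25 to 32 and 39 to 69 members. The calls ranged from 12 to 16 and 7 to 13 between the lines at 6 h, 16 to 21 and 47 to 48 with serum at 6 h, 22 to 24 and 48 to 49 between E2F1 and serum, 14 to 16 and 44 to 45 at 2 h of serum, 14 to 16 and 13 to 19 from 2 to 6 h, 8 to 11 and 2 to 5 for its difference between lines, and 0 to 1 and 1 to 2 from 6 to 12 h in the EV line. A lone library is assumed there to vary like the other groups. Same-numbered libraries correlated above 0.1 in 20 of 55 pairs of groups (from -0.366 to 0.59), so the numbers were not taken to pair them, although all 6 pairs among EV 0 h, EV doxycycline 6 and 12 h and serum 6 h (0.118 to 0.59), and all 3 among the E2F1 line at 0, 6 and 12 h (0.129 to 0.397), were above 0.1. With the replicate block the calls were 20 and 13 between the lines, 19 and 48 with serum, 23 and 49 between E2F1 and serum, 17 and 45 at 2 h, 18 and 18 from 2 to 6 h, 15 and 5 for its difference and 0 and 1 from 6 to 12 h in the EV line. With the block within each line that last count was 2, and with only the groups compared it was 0 (the cause was not tested). Replicates number 2 a group, which limits the precision of every SE.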
